A study of Mus musculus with 12 samples.

Results

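The 8 genes described here encode proteins of heme breakdown and iron recycling: Spic, Hmox1, Blvrb, Hebp1, Slc40a1, Slc11a1, Fth1 and Ftl1. They were chosen by name for their known roles, out of 55421 genes in the deposited count table, and all 8 were matched and passed the filter on low counts. Macrophages of the bone marrow, spleen and liver engulf aged red cells, open the heme ring and return its iron to the blood. Heme oxygenase releases the iron, ferritin stores it and ferroportin exports it, and erythroid precursors in the marrow take up iron for new hemoglobin. Other cells that meet free heme, the endothelium among them, use the same enzymes.

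Cells labelled as endothelial cells were sorted by flow cytometry from the bone marrow of 12 mice, with one library of polyadenylated RNA per mouse. All mice were 20 weeks old. The 3 naive controls, the 3 mice with hypertension and the 3 mice with myocardial infarction (MI) carried the C57BL/6J background, and the 3 mice with atherosclerosis carried the Apoe(tm1Unc) allele, which removes apolipoprotein E from every cell. Hypertension was induced by infusion of the pressor peptide angiotensin II from minipumps for 8 weeks, atherosclerosis arose on a western-type diet given for 10 weeks, and MI by permanent ligation of a coronary artery. The labels give day 2 after MI, whereas the text of the study gives day 4. The sort took TER-119-, CD41-, CD45-, CD31hi, SCA-1+ cells after lineage depletion, and nothing in the labels states how many cells entered a library. The study asked how cardiovascular disease changes the vascular niche of the marrow. All comparisons of a disease with controls share the same 3 control mice.

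Counts on genes totalled between 17007088 and 25136936 per library. Values below are CPM, a gene's counts scaled to a common library total, after TMM scaling, which corrects totals for differences in composition. Apoe, the targeted gene, held 731, 717 and 894 CPM in the controls and 9.78, 7.28 and 14.8 CPM in the Apoe-/- mice, so the labels of that group held. The 13 endothelial marker genes together held between 140 and 266 CPM, with a median of 3.03 CPM for Cdh5, 20.3 for Pecam1 and 8.61 for Kdr. The 12 neutrophil genes held between 33811 and 97865 CPM, 13 erythroid genes between 7918 and 24766 and 12 resident macrophage genes between 526 and 1144. Each of the 13 endothelial genes had counts, yet RNA of blood cell types that the gate should remove held far more of the counts than endothelial RNA. In RNA from a mixed sort, fewer cells of a type and less RNA per cell cannot be told apart. Atherosclerosis replicate 2 and hypertension replicate 4 stood lowest of all libraries for the neutrophil sum and for the summed ribosomal protein genes. Some fold changes and correlations that rest on them are given with and without them, and the spread of each gene only with them.

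Ferroportin and both ferritin chains are known to be controlled after transcription. A hairpin in the 5′ untranslated region (UTR) of their mRNAs, the iron-responsive element, binds iron regulatory proteins when iron is scarce, and translation is then blocked. The counts measure mRNA and do not read this step. The hairpin was searched for on the coding strand of annotated 5′ UTRs as a C, 5 bases, the loop CAGTGN and 5 bases that pair with those before the loop. It was present in 31 of 21200 genes with an annotated 5′ UTR (0.146%) and in 3 of the 8 genes here. Protein was not measured for any of the 8 genes. These 3 sequences are shown because they mark the genes with this further step of control, with the loop in capitals, from the GENCODE transcripts of GRCm38.
Slc40a1 (chr1:45925464-45925493, minus strand): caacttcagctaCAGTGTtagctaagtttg
Fth1 (chr19:9982732-9982761, plus strand): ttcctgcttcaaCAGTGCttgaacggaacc
Ftl1 (chr7:45459778-45459807, minus strand): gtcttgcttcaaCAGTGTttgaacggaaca
The hairpin began at base 96 of a 5′ UTR of 319 bases in Slc40a1, at base 93 of 224 in Fth1 and at base 84 of 253 in Ftl1.

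Levels differed widely among the 8 genes. In median CPM per kilobase of annotated exon over the 12 libraries, Fth1 stood highest at 702, followed by Blvrb at 153, Slc40a1 at 84.7, Hmox1 at 33.8, Slc11a1 at 12.6, Ftl1 at 7.32, Spic at 6.89 and Hebp1 at 1.08. The value of Ftl1 is a lower limit for the light chain. Of the 1427 stretches of 50 bases in its transcripts, 726 (50.9%) also occur in transcripts of other annotated genes, mainly the copies Ftl1-ps1, Gm15590, Ftl2-ps and Ftl1-ps2, and STAR counts only reads that map to one place. Reads from these stretches were therefore lost, and the copies themselves held medians of 0.631 to 1.13 CPM. Fth1 shared 1.59% of its stretches, with Gm6977 alone, Spic 3.01%, and each of the other 5 genes under 1%. Ftl1 also overlaps Gm22133 on the same strand and Gm10252 on the opposite one.

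Spic (chromosome 10, 88674772 to 88685015) encodes the transcription factor that heme induces in macrophages that recycle iron. Its CPM in replicates 2, 3 and 4 was 28.0, 17.2 and 25.9 in controls, 35.8, 22 and 17.1 in hypertension, 27.0, 47.9 and 38.2 in atherosclerosis and 19.2, 27.4 and 21.1 after MI. Means were 23.7 ± 5.73 in controls, 25 ± 9.69 in hypertension, 37.7 ± 10.5 in atherosclerosis and 22.6 ± 4.27 after MI (SD, n = 3 each). Atherosclerosis replicates 3 and 4 lay above all other libraries, while replicate 2 lay within the range of controls. Atherosclerosis was the highest group, and its range overlapped that of every other group.

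Hmox1 (chromosome 8, 75093621 to 75100589), the inducible heme oxygenase, cleaves heme into biliverdin, carbon monoxide and iron. It held 72.2, 30.8 and 60.2 CPM in controls, 80.7, 37.2 and 24.6 in hypertension, 22.6, 65.9 and 93.6 in atherosclerosis and 124, 58.2 and 42.5 after MI. Every group spread by at least 2.35-fold within itself, and the lowest library and the second highest were both from Apoe-/- mice. Means were 54.4 ± 21.3, 47.5 ± 29.4, 60.7 ± 35.8 and 74.7 ± 43.0 in controls, hypertension, atherosclerosis and MI (SD, n = 3 each), an order in which no neighbours differed beyond their spread.

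Blvrb (chromosome 7, 27447978 to 27466144) encodes biliverdin reductase B, a reductase of biliverdin and flavins that is abundant in red cells. Its CPM was 523, 325 and 453 in controls, 484, 417 and 413 in hypertension, 195, 540 and 467 in atherosclerosis and 433, 409 and 320 after MI. Atherosclerosis replicate 2 was the lowest library and replicate 3 the highest, so the Apoe-/- mice alone spanned the whole range. Blvrb lies 7.7 Mb and Ftl1 25.8 Mb from Apoe on chromosome 7, and DNA of the embryonic stem cell donor strain can persist around a targeted gene; its part in these values was not tested. Hebp1 (chromosome 6, 135137522 to 135198022), which encodes a cytosolic heme-binding protein, was the scarcest of the 8 genes. It held 4.54, 3.14 and 3.34 CPM in controls, 3.45, 3.85 and 5.41 in hypertension, 2.18, 7.17 and 6.93 in atherosclerosis and 4.20, 3.23 and 4.58 after MI. These values rest on 49 to 136 counts per library, and here too the Apoe-/- mice held both the lowest library and the 2 highest.

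Slc40a1 (chromosome 1, 45908068 to 45926523) encodes ferroportin, the known exporter of iron from cells. Its CPM was 592, 666 and 821 in controls, 1102.7, 852 and 952 in hypertension, 1281.5, 629 and 704 in atherosclerosis and 541, 918 and 686 after MI. All 3 hypertension libraries lay above all 3 controls, with means of 969 ± 126 against 693 ± 117 (SD, n = 3 each), whereas atherosclerosis (871 ± 357) and MI (715 ± 190) overlapped controls. Non-overlap between hypertension and controls, in either direction, held for 16.8% of all genes. Slc11a1 (chromosome 1, 74375195 to 74386062) encodes NRAMP1, a metal transporter of the phagosome membrane for which C57BL/6 mice are known to carry a loss-of-function allele. It held 39.2, 50.9 and 56.4 CPM in controls, 50.2, 53.4 and 46.5 in hypertension, 46.5, 41.4 and 60.3 in atherosclerosis and 39.3, 39.6 and 34.3 after MI. All 3 MI libraries lay below all hypertension and atherosclerosis libraries, and controls overlapped every group. Non-overlap held for 19.6% of all genes between MI and hypertension and for 13.7% between MI and atherosclerosis.

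Fth1 (chromosome 19, 9980598 to 9985098) encodes the ferritin heavy chain, which oxidizes iron for storage. Its CPM was 3872.8, 2010.3 and 2670.7 in controls, 2499.3, 1983.6 and 912 in hypertension, 543, 4492.8 and 4010.3 in atherosclerosis and 5350.9, 2368.8 and 1718.5 after MI. The 2 libraries that stood apart were the 2 lowest, and in the Apoe-/- mice alone the level differed 8.28-fold between mice. Ftl1 (chromosome 7, 45457944 to 45459884) encodes the light chain, which aids the formation of the iron core. Ftl1 did not share this spread in the reads counted, which leave out the 50.9% of its stretches shared with other genes. It held 9.98, 9.31 and 7.91 CPM in controls, 7.67, 8.93 and 11.8 in hypertension, 9.65, 13 and 14.6 in atherosclerosis and 12.9, 10.6 and 7.82 after MI, so that 2 of 3 Apoe-/- libraries were the highest of the 12 and all groups overlapped. When the groups were ordered by their means, neighbours overlapped in range for all 8 genes.

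**Figure D1:**
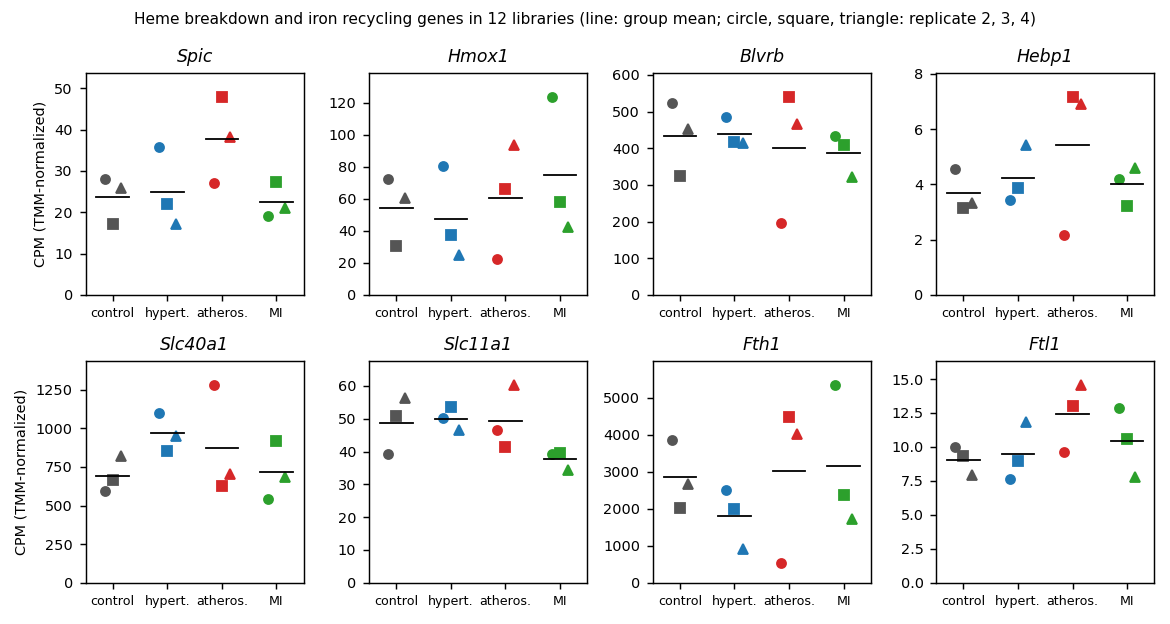
TMM-normalized CPM (y axis, from 0) of the 8 genes in the 12 libraries by group (x axis). Points are single mice, with circles, squares and triangles for replicates 2, 3 and 4, and lines are group means. Slc40a1 in hypertension lies above controls in every mouse, where non-overlap in either direction held for 16.8% of all genes. Fth1 spans 543 to 4492.8 CPM within atherosclerosis.

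Spread between mice set the genes apart more than disease group did. Over the 12 libraries, Fth1 differed 9.86-fold between its lowest and highest value and Hmox1 5.46-fold. The SD of their log2 CPM within groups was 1.06 and 0.86, against a median of 0.31 over all genes tested, and a higher SD was found in 1.59% of genes for Fth1 and 3.81% for Hmox1. Atherosclerosis replicate 2 and hypertension replicate 4 held the lowest values of both genes, and these spreads were not computed without them. Hebp1 (0.54), Blvrb (0.45), Spic (0.41) and Slc40a1 (0.37) lay above that median, and Ftl1 (0.29) and Slc11a1 (0.21) below it. Group explained 11.4% of the variance of log2 CPM of Fth1, 10.7% of Hmox1, 9.39% of Hebp1 and 7.28% of Blvrb, against a median of 27.3% over all genes. It explained 48.6% for Slc11a1, 43.0% for Spic, 32.9% for Ftl1 and 30.5% for Slc40a1. With 3 libraries per group, part of the variance falls between groups even where groups do not differ. The median over all genes is thus no measure of an effect of disease. These shares are descriptions and were not tested.

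No difference from controls passed the test for any of the 8 genes. Genes were tested with edgeR's quasi-likelihood method, and p values of all 15999 genes were adjusted after Benjamini and Hochberg, with a threshold of 0.05. In hypertension 0 of 8 genes were called, against 0.0% of all genes, and 0 of 8 had an unadjusted p under 0.05 (3.71% of all genes). In atherosclerosis 0 of 8 were called, against 0.144% of all genes, and Spic was the 1 gene of 8 with an unadjusted p under 0.05 (5.97% of all genes). After MI 0 of 8 were called, against 0.0% of all genes, and 0 of 8 had an unadjusted p under 0.05 (2.8% of all genes). edgeR's likelihood-ratio test and DESeq2 also called 0 of 8 in each comparison, and over all genes they called 0 and 0 in hypertension, 81 of 15999 and 79 of 35971 in atherosclerosis and 1 and 1 after MI. One test of any difference among the 4 groups gave adjusted p values from 0.705 for Spic to 0.973 for Blvrb by edgeR's quasi-likelihood test, with 0 of 8 called against 0.144% of all genes.

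In hypertension, the largest increase among the 8 genes was that of Slc40a1, at 1.4-fold (log2 fold change 0.48, SE 0.27, 95% interval -0.11 to 1.07, edgeR quasi-likelihood adjusted p = 0.951). Non-overlap with controls, seen for Slc40a1 as the 1 gene of 8, was found for 16.8% of all genes in this comparison. The largest decrease was that of Fth1, with a log2 fold change of -0.66 (SE 0.63, interval -2.03 to 0.7), which was -0.34 without the 2 libraries that stood apart. The neutrophil sum was also lower, at 36972 to 53849 CPM in hypertension against 58320 to 80371 in controls, without overlap. With the log2 share of neutrophil genes as a covariate, the log2 fold change of Slc40a1 was 0.1 and that of Fth1 0.71 (edgeR adjusted p = 0.99 and 0.964). Without overlap in this sum, neutrophil share and disease cannot be told apart here, and the cause of these shifts was not tested. The intervals of the other 6 genes spanned 0, and their log2 fold changes lay between -0.19 for Hmox1 and 0.21 for Hebp1.

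In atherosclerosis, Spic was 1.59-fold higher than in controls (log2 fold change 0.67, SE 0.29, interval 0.05 to 1.29). Its unadjusted edgeR quasi-likelihood p was 0.0361 and its adjusted p 0.818, so it did not pass, and 0 of 8 genes were free of overlap with controls (9.51% of all genes). The resident macrophage sum moved with it, at 899 to 1144 CPM in atherosclerosis against 583 to 699 in controls, without overlap. With the log2 share of these macrophage genes as a covariate, the log2 fold change of Spic was -0.26 (adjusted p = 0.75, edgeR). As the sum did not overlap between these groups, macrophage share and disease cannot be told apart here, and the cause was not tested. Ftl1 (0.45, SE 0.24) and Hebp1 (0.56, SE 0.38) also lay above controls, with intervals that spanned 0. Fth1 was at 0.08 (SE 0.63, interval -1.27 to 1.44) and at 0.59 without the 2 libraries that stood apart, and with them left out Slc40a1 moved from 0.33 to -0.05.

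After MI, the largest decrease was that of Slc11a1, at 0.773 times the control level (log2 fold change -0.37, SE 0.17, interval -0.75 to 0.0, edgeR quasi-likelihood adjusted p = 1.0). Hmox1 lay highest above controls, at a log2 fold change of 0.46 (SE 0.54, interval -0.72 to 1.63), and was -0.11 once MI replicate 2, the library with most Hmox1, was left out. The remaining 6 genes had log2 fold changes between -0.16 for Blvrb and 0.2 for Ftl1, and 0 of 8 genes were free of overlap with controls (8.86% of all genes). The neutrophil sum was 63520 to 97865 CPM after MI, 58320 to 80371 in controls and 36972 to 53849 in hypertension. With the log2 share of neutrophil genes as a covariate, the log2 fold change of Slc11a1, which neutrophils and macrophages are known to express, was -0.35 (edgeR adjusted p = 0.993). The cause of the lower Slc11a1 level after MI was not tested.

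**Figure D2:**
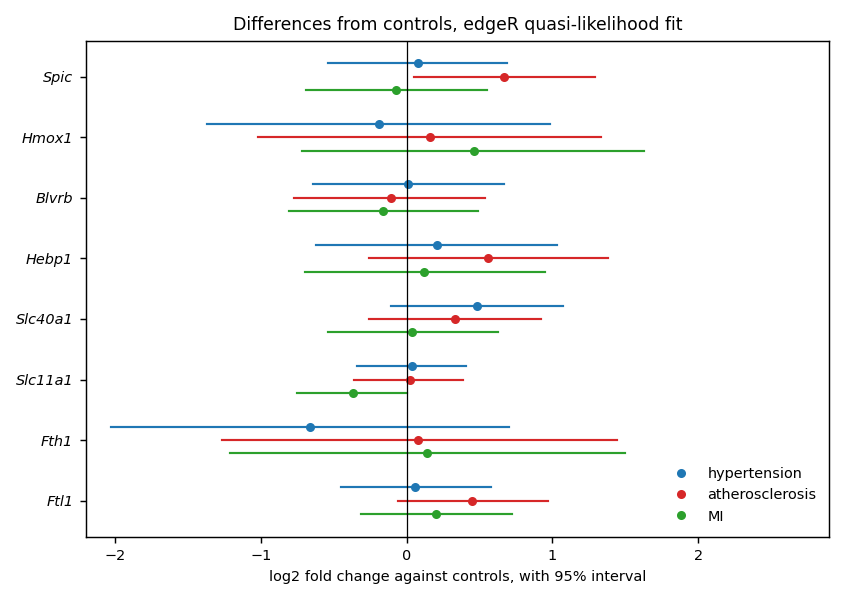
Log2 fold changes against controls (x axis) of the 8 genes (y axis) in hypertension, atherosclerosis and MI, from one edgeR quasi-likelihood fit. Points are estimates and bars are 95% intervals. The interval of Spic in atherosclerosis, 0.05 to 1.29, is the one above 0, and the bars of Fth1 and Hmox1 are the widest.

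The width of these intervals sets what the 12 libraries could show. For Fth1 after MI, the interval ran from 0.431 to 2.82 times the control level, and for Hmox1 from 0.608 to 3.11 times. For Slc11a1 in hypertension it was narrower, from 0.792 to 1.33 times. A doubling of Fth1 or Hmox1 after MI therefore lies inside the interval, whereas one of Slc11a1 in hypertension lies outside it.

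The same fit gave the differences between diseases. Between MI and atherosclerosis, Spic differed by a log2 fold change of -0.74 (SE 0.29, interval -1.36 to -0.12, edgeR quasi-likelihood adjusted p = 0.322), the largest difference of any gene but Fth1 over the 6 comparisons. Slc11a1 was lower after MI than in hypertension (-0.41, SE 0.17, adjusted p = 0.581) and than in atherosclerosis (-0.39, SE 0.17, adjusted p = 0.372, both edgeR). Its libraries did not overlap in either comparison, which held for 19.6% of all genes between MI and hypertension and for 13.7% between MI and atherosclerosis. Between atherosclerosis and hypertension, Spic was at 0.59 (SE 0.29, adjusted p = 0.841, edgeR), 0 of 8 genes were free of overlap, against 10.9% of all genes, and 0 of 8 had an unadjusted p under 0.05, against 5.94%. None of the 8 genes was called between diseases, where 0.0625% of all genes were called between atherosclerosis and hypertension, 0.0% between MI and hypertension and 0.269% between MI and atherosclerosis. Unadjusted p values under 0.05 were found for Slc11a1 between MI and hypertension (8.41% of all genes) and for Spic and Slc11a1 between MI and atherosclerosis (12.7% of all genes).

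Although groups did not separate them, several of the 8 genes moved together from mouse to mouse. Log2 CPM of Hmox1 and Fth1 correlated with Pearson's r = 0.90 (permutation p = 2e-05, adjusted over 28 pairs 0.00056) and Spearman's rho = 0.90 (permutation p = 0.00013) over the 12 libraries. Without atherosclerosis replicate 2 and hypertension replicate 4, the libraries farthest from the median, r was 0.83 (permutation p = 0.00282, adjusted 0.079, so the call was lost), and after each group was centred on its mean it was 0.91 (adjusted permutation p = 0.0216). Fth1 and Blvrb correlated with r = 0.80 (permutation p = 0.00301, adjusted 0.0281) and rho = 0.78 (permutation p = 0.00366, adjusted 0.0512), with r = 0.71 without the same 2 libraries (adjusted permutation p = 0.114, the call lost) and 0.91 within groups (adjusted permutation p = 0.0216). Fth1 and Slc40a1 had r = -0.77 (adjusted permutation p = 0.0281) and rho = -0.69 (adjusted permutation p = 0.121). This relation passed for r over all libraries alone, with r = -0.74 without hypertension replicate 2 and atherosclerosis replicate 2 (adjusted permutation p = 0.107) and -0.74 within groups (adjusted permutation p = 0.245). In hypertension, the mouse with the most Fth1 also held the most Slc40a1. The ratio of Fth1 to Slc40a1, per kilobase, was 17, 7.83 and 8.44 in controls, 5.88, 6.04 and 2.48 in hypertension, 1.1, 18.5 and 14.8 in atherosclerosis and 25.7, 6.69 and 6.5 after MI. All 3 hypertension libraries lay below all 3 controls in this ratio, which was not tested and was computed from values already seen. Slc40a1, by which the ratio divides, lay above controls in the same libraries by itself. Non-overlap in this comparison held for 16.8% of single genes.

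**Figure D3:**
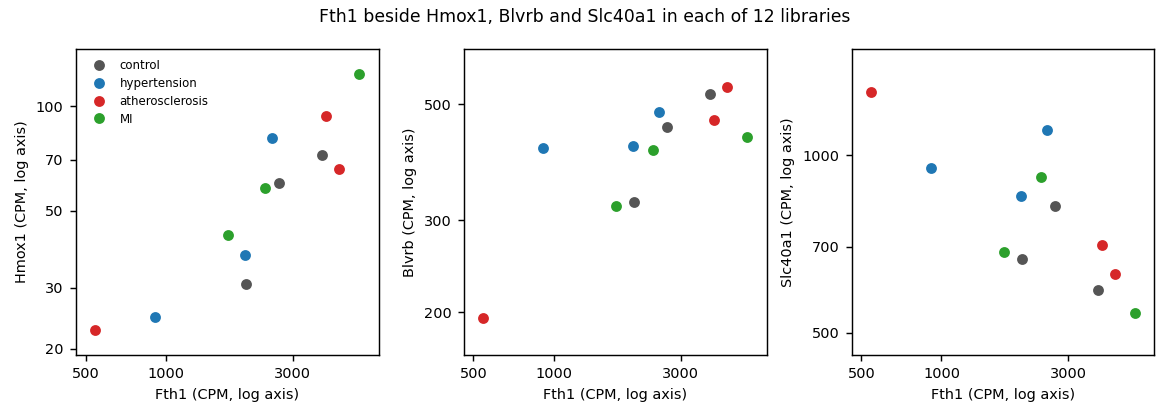
CPM of Hmox1, Blvrb and Slc40a1 (y axes, log scale) against CPM of Fth1 (x axes, log scale) in each of 12 libraries, coloured by group. Hmox1 and Blvrb are higher in libraries with more Fth1 (r = 0.90 and 0.80) and Slc40a1 is lower (r = -0.77).

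The same libraries ranked alike for RNA that marks no single cell type. The summed CPM of the ribosomal protein genes ran from 5606 in atherosclerosis replicate 2 and 6720 in hypertension replicate 4 to 14148 in MI replicate 2, the libraries that were also lowest and highest for Fth1. Blood cell RNA ranked these libraries alike too. The neutrophil sum was 33811, 36972 and 97865 CPM in them, its lowest and highest values, and the erythroid sum was lowest in atherosclerosis replicate 2, at 7918 CPM. Correlations of Fth1 with the neutrophil and erythroid sums were not tested. Over the 12 libraries the ribosomal protein sum correlated with Fth1 (r = 0.80, rho = 0.69, adjusted permutation p of r over 16 pairs = 0.0185), Hmox1 (r = 0.74, rho = 0.69, adjusted permutation p = 0.0279) and Slc40a1 (r = -0.78, rho = -0.69, adjusted permutation p = 0.0185). For rho, the adjusted permutation p was 0.0702 for each of these genes. Within groups, r was 0.82, 0.72 and -0.8 (adjusted permutation p = 0.0617, 0.182 and 0.182). These relations therefore passed for r over all libraries alone. Without atherosclerosis replicate 2 and MI replicate 2, r was 0.65, 0.46 and -0.57, with adjusted permutation p from 0.214 to 0.36, so the relations rest in part on those libraries. The genes most like Fth1 over the 12 libraries, among genes with a mean log2 CPM of at least 1, were Gm6977 (r = 0.986), which shares sequence with it, the class I antigen gene H2-D1 (r = 0.984) and the ribosomal protein gene Rpl7 (r = 0.981). The genes most like Hmox1 were Rbbp4 (r = 0.973), Eif3e and Paics (both r = 0.953), and those most like Slc40a1 were Zc3h14 (r = 0.96), Rab5a (r = 0.953) and Adcy3 (r = 0.951). As each was picked as the highest among all genes, these values are descriptions.

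Spic followed the macrophage genes. Its log2 CPM correlated with that of the 12 summed macrophage genes with r = 0.84 (permutation p adjusted over 8 pairs = 0.00528) and rho = 0.76 (permutation p = 0.00542) over 12 libraries. The relation weakened to r = 0.65 (adjusted permutation p = 0.0853) without atherosclerosis replicates 3 and 4, and to r = 0.72 within groups (adjusted permutation p = 0.0679). The genes most like Spic were Slc22a3 (r = 0.921), Il18 (r = 0.901) and the complement gene C1qb (r = 0.897), which is itself on the macrophage list. Hmox1 (r = 0.43, adjusted permutation p = 0.221) and Fth1 (r = 0.30, adjusted permutation p = 0.394) did not pass against the macrophage sum over all libraries, but did within groups, at r = 0.84 and 0.73 (adjusted permutation p = 0.0216 and 0.0226). Slc40a1 (r = 0.12) and Ftl1 (r = 0.48) did not pass, and neither did Slc11a1 against the neutrophil sum (r = -0.53, rho = -0.64, adjusted permutation p of r = 0.157). For Slc11a1, r was -0.76 without hypertension replicate 4 and atherosclerosis replicate 2 (adjusted permutation p = 0.0514). Within groups it was -0.23 (adjusted permutation p = 0.735).

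Blvrb followed the erythroid genes, hemoglobins and membrane proteins of red cells among them. It correlated with their sum with r = 0.78 (adjusted permutation p = 0.00928) and rho = 0.87 (permutation p = 0.00048), and with r = 0.89 without atherosclerosis replicate 3 and MI replicate 2 and 0.90 within groups (adjusted permutation p = 0.00617). Hebp1 gave r = 0.70 with the same sum (adjusted permutation p = 0.0323) and rho = 0.56 (adjusted permutation p = 0.124). Without those 2 libraries its r was 0.66 (adjusted permutation p = 0.0853), and within groups 0.69 (adjusted permutation p = 0.196). The relation of Hebp1 thus passed for r over all libraries alone. The erythroid sum was lowest in atherosclerosis replicate 2, at 7918 CPM, and highest in replicate 3, at 24766 CPM, the libraries with the least and the most Blvrb. Hagh (r = 0.967) and Prdx3 (r = 0.961) were among the genes most like Blvrb. Among the remaining genes, Ftl1 was most like Cxcl2 (r = 0.964), Slc11a1 most like Nxpe4 (r = 0.949) and Hebp1 most like Atg2b (r = 0.891).

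**Figure D4:**
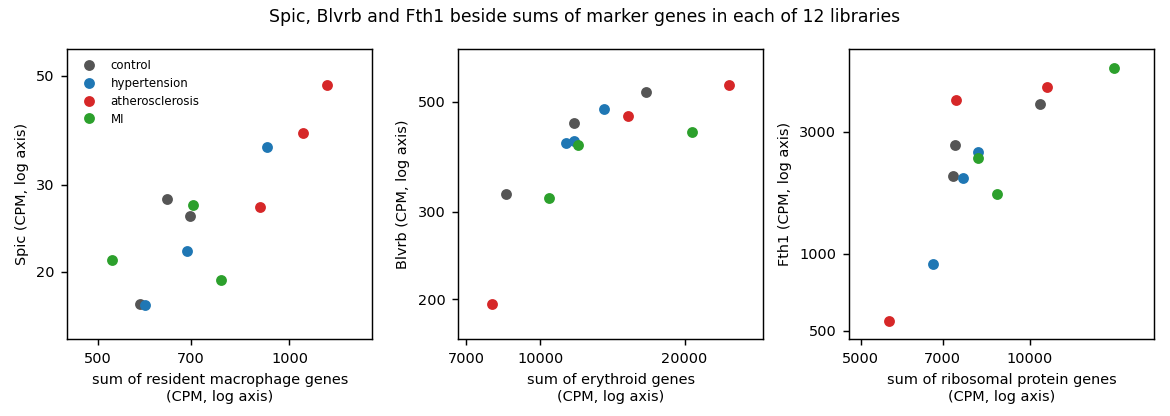
CPM of Spic, Blvrb and Fth1 (y axes, log scale) against the summed CPM of resident macrophage, erythroid and ribosomal protein genes (x axes, log scale) in each of 12 libraries, coloured by group. Spic is higher in libraries with a higher macrophage sum (r = 0.84), Blvrb with a higher erythroid sum (r = 0.78) and Fth1 with a higher ribosomal protein sum (r = 0.80).

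Another 64 genes of heme and iron handling, in 7 lists, were read from the same fit, and 57 of them had enough counts to be tested. None was called against controls by edgeR's quasi-likelihood test in any disease. In hypertension, 9 of 57 had an unadjusted p under 0.05 (15.8%, against 3.71% of all genes), 8 of them higher and 1 lower than in controls. In atherosclerosis 5 of 57 did so (8.77%, against 5.97% of all genes), all higher, and after MI 0 of 57 (against 2.8% of all genes).

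Heme synthesis held 5 of these 9 genes in hypertension. Of its 16 genes, 13 had a log2 fold change above 0 (81.2%, against 48.1% of all genes) with a median of 0.22 (all genes -0.01), and all hypertension libraries lay above all controls in 7 genes and below them in 1 (non-overlap in either direction held for 16.8% of all genes). Fech, ferrochelatase, which inserts iron into the heme ring, held 2652 ± 238 CPM against 1600 ± 372 in controls (SD, n = 3 each, log2 fold change 0.73, edgeR adjusted p = 0.951). Alad, an early enzyme of the pathway, held 671 ± 59.4 against 460 ± 44.7 CPM (SD, n = 3 each, log2 fold change 0.54, edgeR adjusted p = 0.951). The other 3 genes with an unadjusted p under 0.05, named after their values were seen, were the mitochondrial carriers Slc25a37 (0.5) and Slc25a39 (0.49), and Alas1, the first enzyme of the pathway outside erythroid cells, which was lower (-0.75). The erythroid sum overlapped between the groups, at 11296 to 13602 CPM in hypertension and 8484 to 16603 in controls. The neutrophil sum did not overlap, at 36972 to 53849 CPM in hypertension and 58320 to 80371 in controls. The cause of the shifts in this list was not tested. In atherosclerosis the list also had 13 of 16 genes above 0 with a median of 0.15 (all genes 0.01), led by Slc25a37, the mitochondrial iron importer (log2 fold change 0.5, edgeR adjusted p = 0.76), and Alas2, the erythroid enzyme of the first step (0.56, edgeR adjusted p = 0.86). After MI 8 of 16 were above 0 with a median of -0.02, and Abcb6 (-0.48) and Uros (-0.4) had the smallest p values.

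The 7 tested genes of iron uptake had a median log2 fold change of 0.31 in both hypertension and atherosclerosis, with 6 of 7 above 0 (48.1% and 51.9% of all genes), and of -0.24 after MI, with 2 of 7 above 0 (8006 of all 15999 genes). None of the 7 was called. In atherosclerosis, Tfrc, the transferrin receptor, held 505 ± 107 CPM against 311 ± 64.8 in controls (SD, n = 3 each, log2 fold change 0.7, edgeR adjusted p = 0.714). Trf, transferrin itself, held 515 ± 110 against 353 ± 56.2 CPM (SD, n = 3 each, log2 fold change 0.54, edgeR adjusted p = 0.679). For both genes all Apoe-/- libraries lay above all controls, where non-overlap in either direction held for 9.51% of all genes. In hypertension, Tfr2 (0.45, edgeR adjusted p = 0.951) and the iron transporter gene Slc11a2 (0.47, edgeR adjusted p = 0.951) had the smallest p values, and after MI the same pair lay at -0.31 and -0.35 (edgeR adjusted p = 1.0 for both). Set directly against hypertension, MI had 13 of the 57 heme and iron genes at an unadjusted p under 0.05 (22.8%, against 8.41% of all genes), 11 of them lower after MI, with Tfr2 at -0.76, Slc11a2 at -0.82 and Fech at -0.78 (edgeR adjusted p = 0.52, 0.52 and 0.529). None was called.

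Genes that take up or pass on heme had medians of 0.11, 0.21 and 0.25 in hypertension, atherosclerosis and MI over 7 tested genes. Cd163, the macrophage receptor for hemoglobin bound to haptoglobin, held 14.1 ± 4.53 CPM in atherosclerosis against 8.66 ± 1.95 in controls (SD, n = 3 each, log2 fold change 0.7, edgeR adjusted p = 0.829), in the mice in which the macrophage sum also lay above controls, and Lrp1, the receptor for heme bound to hemopexin, was at 0.38. In hypertension, Abcg2, a transporter that exports heme and porphyrins, was at 0.46 and Hp, haptoglobin, at -0.58 (edgeR adjusted p = 0.951 for both), in the mice in which the neutrophil sum lay below controls without overlap. Blvra, the main biliverdin reductase and one of 3 tested genes of other heme breakdown, was at 0.45 in hypertension (edgeR adjusted p = 0.951), while Blvrb was at 0.01. All hypertension libraries lay above controls for Blvra, where non-overlap in either direction held for 16.8% of all genes. Por, the electron donor of heme oxygenase, was at -0.3, -0.21 and -0.42 in the 3 diseases.

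The 10 tested regulators, which include both iron regulatory proteins, the heme sensor Bach1 and the stress factor Nfe2l2, had medians of -0.01, -0.01 and 0.03 in hypertension, atherosclerosis and MI, and 0 of 10 had an unadjusted p under 0.05 in any of them, against 3.71%, 5.97% and 2.8% of all genes. Those with the smallest p values were Ireb2, an iron regulatory protein (-0.2), and Nfe2l2 (-0.23) in hypertension, Hfe, a regulator of iron uptake (0.41), and Fbxl5, which marks iron regulatory protein for degradation (0.27), in atherosclerosis, and the small MAF factor Maff (0.56) and Nfe2l2 (-0.17) after MI. The 9 tested targets of BACH1 and NRF2, the factors that also control Hmox1 and the ferritin genes, had medians of 0.01, -0.14 and -0.05. Gclm, the regulatory subunit of glutamate-cysteine ligase, was at 0.25 in hypertension and 0.24 in atherosclerosis, and Srxn1, sulfiredoxin, at -0.22 after MI. Gclc, the catalytic subunit of the first enzyme of glutathione synthesis, held 160 ± 2.58 CPM in atherosclerosis and 110 ± 0.492 after MI, against 129 ± 10.7 in controls (SD, n = 3 each). Its libraries did not overlap with controls in either disease, in opposite directions (log2 fold change 0.31 and -0.24, edgeR adjusted p = 0.76 and 1.0). Such non-overlap held for 9.51% of all genes in atherosclerosis and 8.86% after MI. Between MI and atherosclerosis, the adjusted p of Gclc, 0.0894 (edgeR), was the smallest of all 57 genes in any comparison. The 5 tested genes of storage and handling other than ferritin had medians of 0.02, 0.06 and 0.02. Cp, ceruloplasmin, which oxidizes exported iron, was at 0.14, 0.52 and 0.2 in the 3 diseases, Pcbp1, an iron chaperone, at -0.12 in hypertension and -0.05 after MI, and Ncoa4, the receptor for ferritin breakdown, at 0.14 in atherosclerosis.

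**Figure D5:**
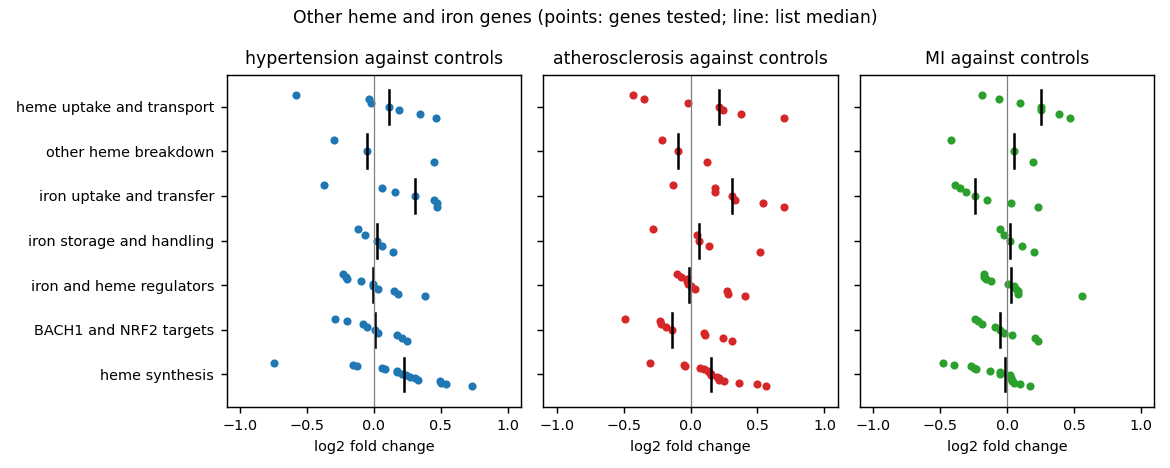
Log2 fold changes against controls (x axes) of the 57 other heme and iron genes tested, by list (y axis), in hypertension, atherosclerosis and MI. Points are genes and black lines are list medians. Heme synthesis lies mostly above 0 in hypertension (13 of 16 genes, median 0.22) and around 0 after MI (median -0.02), and no point passed the test.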

How the data were processed

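The deposited table held raw counts per gene, which the authors made by aligning single-end reads of strand-specific polyadenylated libraries to GRCm38.p6 with STAR 2.7.3a and its GeneCounts option. Which strand column was taken is not given in the sources used here, so reads of overlapping genes on opposite strands may not be separated. Counts were analysed in R 4.3.3 with edgeR 4.0.16. Genes were kept by filterByExpr, libraries were scaled by TMM, and one coefficient per group was fitted to all 12 libraries (glmQLFit, glmQLFTest, two-sided), with Benjamini-Hochberg adjustment over 15999 genes. This left 8 residual degrees of freedom at a common dispersion of 0.0634. Intervals are 95% intervals from the moderated degrees of freedom. Log2 CPM used a prior count of 2. Correlations were tested with 100000 permutations, and within groups by all 1296 permutations of libraries inside groups. Steps were tested on simulated data. Positions came from GENCODE M21 (GRCm38), an earlier annotation release than the one counted with, in which 55240 of 55421 genes were found.

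The 8 genes, the lists and the tests were chosen with earlier results of these data known. The text names all 8 genes, the 2 genes of each other list with the smallest p in each comparison with controls, and genes from the 3 most correlated with each of the 8, of which 1 is not reported here. Nothing in the labels says whether mice with the same replicate number were handled together. Deviations of such libraries from their group means correlated with r between -0.282 and 0.296, so the numbers were not taken as pairs. The labels say that samples are separate but not how they were housed or handled, so p values measure the spread between these samples. Alternatives were the likelihood-ratio test, DESeq2 1.42.0, RLE size factors, other count filters, a replicate block, the 2 groups alone, leaving out hemoglobin and immunoglobulin genes, marker shares as covariates and leaving out each library.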

Additional observations from a re-analysis of the deposited data

How the results depend on the processing

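Across 24 alternatives, 0 of the 8 genes were called against controls, and 0 of the other heme and iron genes tested. The exception between groups was Spic, which was called without the low-count filter between MI and atherosclerosis (log2 fold change -0.75, edgeR adjusted p = 0.0221) and in the test among the 4 groups, 1 gene of 8 in each. That setting also raised the count over all genes, from 43 of 15999 to 790 of 36003 between MI and atherosclerosis and from 23 to 990 in the test among the 4 groups, and against controls from 0 to 170 in hypertension, 23 to 432 in atherosclerosis and 0 to 130 after MI. In atherosclerosis the count was 81 by the likelihood-ratio test, 79 by DESeq2, 42 with the erythroid share, 4 with the macrophage share, 4 with the 2 groups alone, 7 with a replicate block and 2 to 34 when one library was left out. The replicate block left the count of the 8 genes at 0 in all comparisons and turned 1 sign, that of Fth1 between MI and atherosclerosis, to -0.14. Correlations with marker sums changed with the libraries used: Spic 0.65, Fth1 -0.04 and Hebp1 0.66 without the 2 libraries farthest from the median, and Spic 0.72, Hmox1 0.84, Slc40a1 -0.15, Fth1 0.73 and Hebp1 0.69 with each group centred on its mean.

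Of 1152 log2 fold changes of the 8 genes under alternatives, 93 turned sign, all of them from values of at most 0.81 in size that had not passed the test. With the erythroid share as a covariate, the sign turned for Blvrb -0.0041 (hypertension against controls), Hmox1 -0.31 and Fth1 -0.84 (atherosclerosis against controls), Fth1 -0.3 (MI against controls), Hmox1 -0.05 and Fth1 -0.06 (atherosclerosis against hypertension) and Blvrb 0.17 (MI against atherosclerosis). With the macrophage share as a covariate, the sign turned for Spic -0.23, Slc11a1 -0.03 and Blvrb -0.18 (hypertension against controls), Spic -0.26, Hmox1 -2.19, Slc11a1 -0.23 and Fth1 -2.24 (atherosclerosis against controls), Spic -0.03, Hmox1 -1.24 and Fth1 -0.92 (atherosclerosis against hypertension), Spic 0.19 and Blvrb 0.01 (MI against hypertension) and Spic 0.22 and Blvrb 0.74 (MI against atherosclerosis). With the neutrophil share as a covariate, the sign turned for Hmox1 0.76, Slc11a1 -0.02 and Fth1 0.71 (hypertension against controls), Slc40a1 -0.08, Slc11a1 -0.03 and Blvrb 0.28 (atherosclerosis against controls), Hmox1 -0.04 and Fth1 -0.53 (MI against controls), Hmox1 -0.8, Slc40a1 0.09, Fth1 -1.24 and Ftl1 -0.1 (MI against hypertension) and Hmox1 -1.05, Slc40a1 0.27 and Fth1 -1.57 (MI against atherosclerosis). Without atherosclerosis replicate 2 and hypertension replicate 4 together, an alternative chosen after seeing the data, the sign turned for Hmox1 0.12, Ftl1 -0.12 and Hebp1 -0.0018 (hypertension against controls), Slc40a1 -0.05 and Blvrb 0.22 (atherosclerosis against controls), Blvrb 0.17 (atherosclerosis against hypertension), Hebp1 0.13 (MI against hypertension) and Hmox1 -0.1, Slc40a1 0.09 and Fth1 -0.44 (MI against atherosclerosis). When each library was left out in turn, the log2 fold changes that crossed 0 ranged as follows. For hypertension against controls, they were Spic -0.28 to 0.29, Hmox1 -0.82 to 0.12, Slc11a1 -0.1 to 0.16, Ftl1 -0.12 to 0.2, Blvrb -0.16 to 0.17 and Hebp1 -0.0029 to 0.38. For atherosclerosis against controls, they were Hmox1 -0.3 to 0.56, Slc40a1 -0.05 to 0.52, Slc11a1 -0.15 to 0.14, Fth1 -0.32 to 0.59 and Blvrb -0.39 to 0.22. For MI against controls, they were Spic -0.26 to 0.06, Hmox1 -0.11 to 0.74, Slc40a1 -0.18 to 0.21 and Fth1 -0.48 to 0.44. For atherosclerosis against hypertension, they were Hmox1 -0.11 to 0.98, Slc40a1 -0.53 to 0.03, Slc11a1 -0.19 to 0.09 and Blvrb -0.4 to 0.21. For MI against hypertension, they were Spic -0.36 to 0.21, Ftl1 -0.04 to 0.33 and Hebp1 -0.21 to 0.13. For MI against atherosclerosis, they were Hmox1 -0.27 to 0.76, Slc40a1 -0.51 to 0.09, Fth1 -0.56 to 0.47 and Blvrb -0.39 to 0.23. The cause of these turns was not tested. Hebp1 and Ftl1, at 49 to 286 counts per library, carry the largest counting error of the 8 genes.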
